A study of Mus musculus with 12 samples.

Results

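Fat cells take up fatty acids and glucose, build triacylglycerol from them, keep it in a droplet coated with perilipins and CIDE proteins, and release it again through a chain of lipases. They also secrete adipokines, hormones that report on fat stores and act on liver, muscle, brain and leukocytes. The ankle holds such cells in the fat pads of the synovium, in the bone marrow and under the skin, and several of the enzymes are also made by muscle, macrophages and sebaceous glands. The genes described here are 39 named genes of these steps, sorted by role into adipokines, uptake, fatty acid synthesis, triacylglycerol assembly, droplet storage, lipolysis, their transcriptional regulators and thermogenesis. Each gene was read from the array feature annotated with its symbol alone, or from the brightest such feature where there were several. Of the 39 genes, 36 had such a feature, out of 28853 features on the array, and 35 passed the filter on signal, out of 17450 features tested. Cfd, Acsl1 and Adrb3 had no feature with their symbol alone and were not analysed here.

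The arrays measured ankle joint RNA of 12 mice, 3 in each of 4 groups, on the Affymetrix Mouse Gene 1.0 ST array. Mmp8+/+ mice and Mmp8-/- mice, which lack the collagenase Mmp-8, were either left as controls or made arthritic with serum of K/BxN mice, whose autoantibodies start joint inflammation in the recipient. Arthritic mice received 150 µl of that serum into the peritoneum on day 0 and again on day 2, were 6 to 8 weeks old when it was given and were killed on day 7. All mice are described as males on the C57BL/6 background after 12 rounds of backcrossing, and both genotypes came from crosses of heterozygous parents. Each array holds the RNA of 1 mouse. The whole ankle was taken, so a lower signal can mean fewer fat cells or less RNA per fat cell, which cannot be told apart.

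Markers of the tissue were present on all arrays, with Prg4, the joint lubricant, at log2 signals of 12.88 to 13.47 and Ibsp, a bone matrix gene, at 11.32 to 12.19. Of the arrays, 3 went against their labels. Xist, which is transcribed in females, read 10.42 in Mmp8+/+ control mouse 1 and 10.92 in Mmp8-/- control mouse 1 against 4.66 to 5.41 on the other 10 arrays, and the Y-linked gene Eif2s3y read 4.02 and 4.16 there against 7.94 to 9.27 elsewhere. The array labelled Mmp8-/- control mouse 2 carried an Mmp8 signal of 10.65, as high as the Mmp8+/+ arrays (10.21 to 11.16), while the remaining 5 labelled Mmp8-/- had 4.64 to 5.54. The counts of calls are therefore given also without these arrays, the calls that change without them are named, and "Mmp8-/- control" below means the arrays so labelled.

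With arthritis, genes of every role from adipokines to regulators fell, in both genotypes. Of the 35 genes tested, 27 were lower in arthritic than in control Mmp8+/+ mice at a false discovery rate of 5% (limma, Benjamini-Hochberg over all features), where 12.1% of all features were lower. In Mmp8-/- mice 33 of the 35 were lower, where 14.3% of all features were lower. None was higher in either genotype, where 7.47% and 8.30% of all features were. The median log2 difference over the 35 genes was -1.49 in Mmp8+/+ and -1.67 in Mmp8-/- mice, beside 0.01 and -0.02 over all features.

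The 27 genes called in Mmp8+/+ mice were all called in Mmp8-/- mice, and 9.16% of all features were lower in both. Acly, Elovl6, Agpat2, Cidea, Cebpa and Mlxipl were called in Mmp8-/- mice alone, and Dgat1 and Dgat2 in neither. The calls include Lep and Cidea, whose arthritic signals lay near or under the signal filter, as described below. Within a genotype, all 3 arthritic mice read below all 3 controls in 27 genes in Mmp8+/+ mice (22.4% of all features) and in 34 in Mmp8-/- mice (21.5%), and above them in none (18.6% and 18.4%). In 27 of the 35 genes every arthritic mouse of either genotype read below every control mouse, which was so for 12.4% of all features. With Mmp8+/+ control mouse 1 left out this held for 32 genes, beside 13.1% of all features, and the exceptions were Elovl6, Dgat1 and Cidea. Without the 3 arrays that went against their labels, 29 genes were lower in Mmp8+/+ and 26 in Mmp8-/- mice, where 6.61% and 2.00% of all features were lower. That fit keeps 1 Mmp8-/- control, whose spread is assumed to be like that of the other groups. It lost 8 of the 33 calls in Mmp8-/- mice (Acly, Acacb, Elovl6, Me1, Agpat2, Cidea, Cebpa and Mlxipl, at -1.11 to -0.30, limma adjusted p = 0.0538 to 0.591) and gained Dgat2. In Mmp8+/+ mice it lost Acacb and gained Agpat2, Dgat2 and Cebpa.

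**Figure D1:**
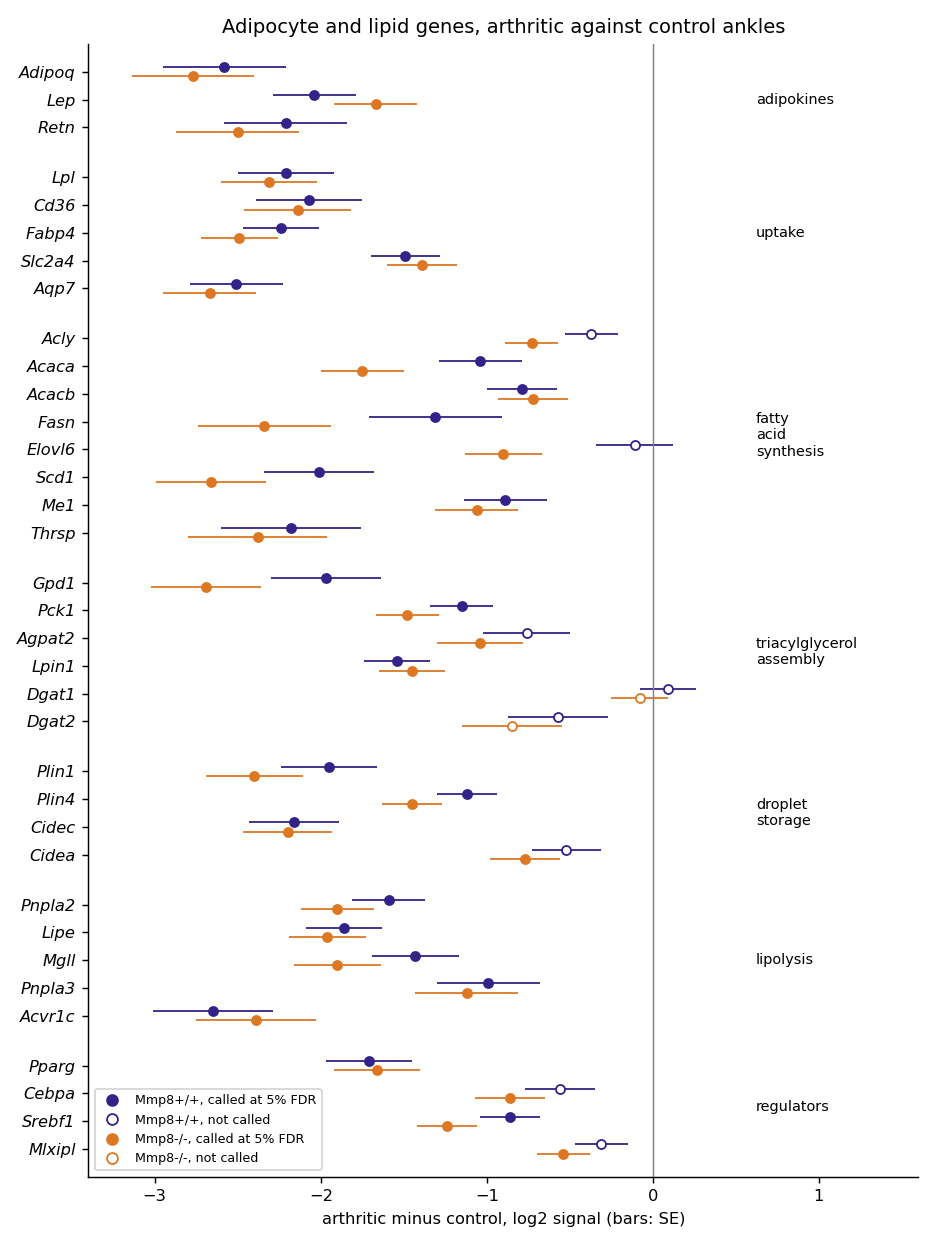
Log2 difference of arthritic minus control ankles for the 35 genes tested, with SE bars, by role (n = 3 mice a group); filled points passed a false discovery rate of 5% in limma. Most points lie between -1 and -3, with Dgat1 in both genotypes and Elovl6 in Mmp8+/+ mice near 0.

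Adiponectin, leptin and resistin are hormones that mouse fat cells secrete. Leptin reports the size of the fat store to the brain, and adiponectin raises insulin sensitivity. All 3 measured adipokines were lower in arthritic ankles of both genotypes, with median log2 differences of -2.21 and -2.50. Adipoq, encoding adiponectin, read 9.94, 10.65 and 10.58 in Mmp8+/+ controls, 10.90, 10.06 and 10.62 in Mmp8-/- controls, 8.27, 7.52 and 7.66 in arthritic Mmp8+/+ mice and 6.85, 7.73 and 8.69 in arthritic Mmp8-/- mice. The highest arthritic mouse stayed more than 1 log2 unit below the lowest control. Its signal was 5.96-fold lower in Mmp8+/+ (log2 difference -2.58, SE 0.37, limma adjusted p = 0.000267) and 6.83-fold lower in Mmp8-/- mice (-2.77, SE 0.37, adjusted p = 0.000148).

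Retn, encoding resistin, read 8.04, 9.58 and 10.17 in Mmp8+/+ controls and 9.33, 9.11 and 9.20 in Mmp8-/- controls. In arthritic mice it read 7.19, 6.94 and 7.04 (Mmp8+/+) and 6.43, 6.78 and 6.94 (Mmp8-/-). The spread lay in the Mmp8+/+ controls, whose mouse 1 was lowest, and still no arthritic mouse reached a control. The log2 differences were -2.21 and -2.50 (SE 0.37 in both, limma adjusted p = 0.000800 and 0.000318). Lep, encoding leptin, fell by 2.04 and 1.67 on the log2 scale. Its arthritic signals, 4.97 to 5.83, lay near the signal filter of 5.3, which it passed through its controls (6.50 to 7.59). The size of its fall is therefore uncertain.

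The promoters of Lep and of Plin1, the droplet coat gene described below, are shown because they hold letters bound by C/EBP factors, whose own genes are described with the regulators. The windows run from 250 bases before to 50 after the RefSeq transcription start on GRCm38.p6, on the strand of the gene, and capitals mark TTGCNNAA, searched on both strands, where N is any base. Lep has it at -55 and Plin1 at -187 and -58 from the start.
Lep, chr6:29059971-29060270, plus strand: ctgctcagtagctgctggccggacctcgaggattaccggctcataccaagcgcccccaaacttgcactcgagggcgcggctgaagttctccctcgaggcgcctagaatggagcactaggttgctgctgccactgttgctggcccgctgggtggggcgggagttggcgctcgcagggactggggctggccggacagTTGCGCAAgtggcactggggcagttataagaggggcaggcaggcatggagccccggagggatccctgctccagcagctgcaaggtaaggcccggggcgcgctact
Plin1, chr7:79732727-79733026, minus strand: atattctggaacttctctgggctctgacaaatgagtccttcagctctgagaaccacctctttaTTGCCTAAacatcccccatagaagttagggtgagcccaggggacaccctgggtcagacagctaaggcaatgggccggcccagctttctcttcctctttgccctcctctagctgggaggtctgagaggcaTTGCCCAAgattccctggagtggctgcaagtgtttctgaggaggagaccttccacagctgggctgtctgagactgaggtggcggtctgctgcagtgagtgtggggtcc
Windows were found for 28 of the 36 measured genes, 39 windows in all, and 4 of the 28 genes (Cidec, Lep, Plin1 and Pparg) held the letters, in 10.3% of their windows against 10.8% of the 32851 windows of all genes. The share is near that of all promoters, and a match of letters is not a bound site.

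Uptake begins at the capillary wall, where lipoprotein lipase frees fatty acids from circulating triacylglycerol, and goes on through the fatty acid transporter CD36 and the fatty acid carrier of fat cells, FABP4. Glucose enters fat and muscle through the insulin-dependent transporter GLUT4, encoded by Slc2a4, and glycerol passes through aquaporin 7. The 5 measured genes (Lpl, Cd36, Fabp4, Slc2a4 and Aqp7) were all lower in both genotypes, with medians of -2.21 and -2.31. Cd36 read 12, 12.03 and 12.05 in Mmp8+/+ controls, 12.25, 12.01 and 11.99 in Mmp8-/- controls, 10.02, 9.79 and 10.05 in arthritic Mmp8+/+ mice and 8.87, 10.30 and 10.68 in arthritic Mmp8-/- mice. The 6 controls lay within 0.3 log2 units of each other, whereas the arthritic Mmp8-/- mice were spread over nearly 2. The log2 differences were -2.07 and -2.14 (SE 0.32, limma adjusted p = 0.000445 and 0.000367).

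Lpl read 10.67, 11.56 and 11.39 in Mmp8+/+ controls, 11.44, 11.44 and 11.26 in Mmp8-/- controls, 9.21, 8.54 and 9.22 in arthritic Mmp8+/+ mice and 8.45, 9.11 and 9.65 in arthritic Mmp8-/- mice. No arthritic mouse overlapped the controls, and the log2 differences were -2.21 and -2.31 (SE 0.29, limma adjusted p = 0.000113 and 8.48e-05). Fabp4 fell by 2.24 and 2.49 on the log2 scale (4.73-fold and 5.61-fold), Aqp7 by 2.51 and 2.67 and Slc2a4 by 1.49 and 1.39. The SE for Fabp4 was 0.23 and the limma adjusted p-values were 1.76e-05 and 7.5e-06. Cd36, Slc2a4 and Lpl are also expressed in muscle, and muscle markers fell in the same ankles, as given below.

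Fatty acid synthesis turns citrate into acetyl-CoA (ATP citrate lyase, Acly), malonyl-CoA (acetyl-CoA carboxylases, Acaca and Acacb) and palmitate (fatty acid synthase, Fasn), with NADPH from malic enzyme (Me1), and then elongates (Elovl6) and desaturates it (Scd1). Of the 8 genes, 6 were lower in Mmp8+/+ and 8 in Mmp8-/- mice, with medians of -0.97 and -1.40, and the sizes differed widely between enzymes. Scd1, the desaturase that makes oleate, read 12.75, 13.77 and 13.35 in Mmp8+/+ controls, 13.73, 13.75 and 13.52 in Mmp8-/- controls, 11.66, 11.17 and 11.02 in arthritic Mmp8+/+ mice and 10.08, 11.58 and 11.34 in arthritic Mmp8-/- mice. All arthritic mice lay more than 1 log2 unit below the lowest control, and the signal was 4.02-fold and 6.33-fold lower (-2.01 and -2.66, SE 0.33, limma adjusted p = 0.000771 and 8.38e-05).

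Me1 read 10.04, 11.17 and 10.63 in Mmp8+/+ controls, 10.61, 11.07 and 10.33 in Mmp8-/- controls, 9.59, 9.85 and 9.73 in arthritic Mmp8+/+ mice and 9.37, 9.66 and 9.82 in arthritic Mmp8-/- mice. The gap between the groups was narrow, 9.85 against 10.04 at the nearest mice. Its log2 differences were -0.89 and -1.06 (SE 0.25, limma adjusted p = 0.0226 and 0.00959), and the Mmp8-/- difference was -0.72 without the 3 arrays that went against their labels (adjusted p = 0.237). Thrsp, a regulator of lipogenesis, fell by 2.18 and 2.38 on the log2 scale, Acaca by 1.04 and 1.75 and Acacb by 0.79 and 0.72. Without the 3 arrays Acacb did not pass in either genotype (-0.74 and -0.57, limma adjusted p = 0.0939 and 0.433). Acaca and Me1 have a second feature each, and these gave differences of -1.59 and -1.92 for Acaca and -0.92 and -1.19 for Me1.

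Fasn, described in full after its values were seen because a single mouse set its size, read 8.80, 11.06 and 10.78 in Mmp8+/+ controls, 10.93, 10.87 and 10.76 in Mmp8-/- controls, 9.09, 8.82 and 8.79 in arthritic Mmp8+/+ mice and 8.40, 8.63 and 8.52 in arthritic Mmp8-/- mice. Mmp8+/+ control mouse 1 read among the arthritic mice, and the other 5 controls were within 0.3 of each other. With all mice the log2 difference was -1.31 in Mmp8+/+ (SE 0.40, limma adjusted p = 0.0313) and -2.34 in Mmp8-/- mice (SE 0.40, adjusted p = 0.00102). Without that mouse it was -2.02 in Mmp8+/+ mice (SE 0.17, limma adjusted p = 6.85e-06). Leaving out any 1 of the other 5 Mmp8+/+ mice gave -1.41 to -0.89, with limma adjusted p-values of 0.0603 to 0.143.

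The Fasn promoter is printed because NF-Y, a factor that binds CCAAT boxes and acts with the sterol-responsive factor SREBP at lipogenic genes, has its letters there 3 times. Capitals mark CCAAT or its complement ATTGG, at -90, -62 and -59 from the RefSeq start on GRCm38.p6, the last pair overlapping.
Fasn, chr11:120824498-120824797, minus strand: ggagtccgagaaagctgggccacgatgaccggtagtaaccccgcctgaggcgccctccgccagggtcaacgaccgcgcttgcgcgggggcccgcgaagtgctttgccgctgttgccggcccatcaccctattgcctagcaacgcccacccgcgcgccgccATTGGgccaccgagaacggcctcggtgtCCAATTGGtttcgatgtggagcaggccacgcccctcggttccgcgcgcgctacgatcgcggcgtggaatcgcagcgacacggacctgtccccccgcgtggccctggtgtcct
CCAAT on either strand stood in 14 of the 39 windows (35.9%) and in 37.4% of all 32851 windows, so its share among these genes was near that of all promoters. TCACNCCAC, letters read by SREBP, stood in 1 window (2.56%), an Mlxipl promoter, against 1.24% of all.

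Acly and Elovl6 were the synthesis genes that did not pass in Mmp8+/+ mice. Acly differed by -0.37 in Mmp8+/+ (SE 0.16, limma adjusted p = 0.110) and fell by 0.73 in Mmp8-/- mice (adjusted p = 0.00528), or -0.79 without the 3 arrays (adjusted p = 0.109). Elovl6, named here for its difference between genotypes, read 8.24, 8.28 and 8.17 in Mmp8+/+ controls, 8.62, 8.45 and 8.33 in Mmp8-/- controls, 8.44, 8.09 and 7.83 in arthritic Mmp8+/+ mice and 7.00, 7.60 and 8.10 in arthritic Mmp8-/- mice. In Mmp8+/+ mice the groups overlapped, with a difference of -0.11 (SE 0.23, limma adjusted p = 0.771), and in Mmp8-/- mice it fell by 0.90 (adjusted p = 0.0149), or -0.77 without the 3 arrays (adjusted p = 0.345).

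Triacylglycerol is assembled on glycerol 3-phosphate, which glycerol 3-phosphate dehydrogenase (Gpd1) and, through glyceroneogenesis, PEP carboxykinase (Pck1) supply. AGPAT2 adds the second acyl chain, lipin 1 (Lpin1) removes the phosphate, and the acyltransferases DGAT1 and DGAT2 add the last chain. Of these 6 genes, 3 were lower in Mmp8+/+ and 4 in Mmp8-/- mice, with medians of -0.96 and -1.25. Gpd1 fell by 1.97 and 2.69 on the log2 scale, Lpin1 by 1.54 and 1.45 and Pck1 by 1.15 and 1.48, whereas the DGAT genes did not pass the test in either genotype.

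Agpat2 read 9.26, 10.58 and 10.29 in Mmp8+/+ controls, 9.96, 10.12 and 10.14 in Mmp8-/- controls, 9.16, 9.46 and 9.23 in arthritic Mmp8+/+ mice and 8.72, 9.08 and 9.29 in arthritic Mmp8-/- mice. Mmp8+/+ control mouse 1 lay among the arthritic mice again. The difference was -0.76 in Mmp8+/+ (SE 0.26, limma adjusted p = 0.0554) and -1.04 in Mmp8-/- mice (adjusted p = 0.0133), and without that mouse it was -1.15 in Mmp8+/+ mice (adjusted p = 0.00168). Without the 3 arrays the Mmp8-/- difference was -1.11 (limma adjusted p = 0.0538).

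Dgat2 read 8.92, 10.23 and 10.44 in Mmp8+/+ controls, 9.72, 9.91 and 10.17 in Mmp8-/- controls, 9.02, 9.45 and 9.39 in arthritic Mmp8+/+ mice and 9.18, 9.0 and 9.06 in arthritic Mmp8-/- mice. Apart from Mmp8+/+ control mouse 1, lowest of all 12, every control read above every arthritic mouse. The differences were -0.57 (SE 0.30, limma adjusted p = 0.181) and -0.85 (adjusted p = 0.0509), and without that mouse -1.05 in Mmp8+/+ mice (adjusted p = 0.00294). Without the 3 arrays the Mmp8-/- difference was -1.09 (limma adjusted p = 0.0396). Dgat1 stayed between 8.35 and 9.01 in all 12 mice, with the groups overlapping, and differed by 0.09 (95% interval -0.26 to 0.45) and -0.08 (-0.44 to 0.27).

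Droplets are coated by perilipin 1 (Plin1), which guards them from lipases in the resting fat cell, and by perilipin 4, while CIDEC fuses them into the single large droplet of white fat. Plin1, Plin4 and Cidec were lower in both genotypes, and the median of the 4 genes of this role was -1.53 and -1.83. Cidec read 9.22, 10.39 and 10.39 in Mmp8+/+ controls, 9.98, 10.14 and 9.89 in Mmp8-/- controls, 7.98, 7.83 and 7.70 in arthritic Mmp8+/+ mice and 7.53, 7.64 and 8.23 in arthritic Mmp8-/- mice. The nearest mice of the 2 conditions were 8.23 and 9.22. The log2 differences were -2.16 and -2.20 (SE 0.27, limma adjusted p = 8.29e-05 and 7.49e-05).

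Plin1 read 8.98, 9.91 and 9.97 in Mmp8+/+ controls, 10.21, 9.92 and 10.09 in Mmp8-/- controls, 8.27, 7.02 and 7.72 in arthritic Mmp8+/+ mice and 7.70, 7.42 and 7.91 in arthritic Mmp8-/- mice. All arthritic mice lay below all controls, and the arthritic Mmp8+/+ mice were the most spread group. The log2 differences were -1.95 and -2.40 (SE 0.29, limma adjusted p = 0.000376 and 7.49e-05). Plin4 fell by 1.12 and 1.45. Cidea, which enlarges droplets in brown and lactating tissue, had low signals, with group means of 5.94 and 5.77 in the controls and 5.42 and 5.01 in arthritic mice. It passed the test in Mmp8-/- mice alone (-0.52, limma adjusted p = 0.0892, and -0.77, adjusted p = 0.018), where it was -0.69 without the 3 arrays. In arthritic Mmp8-/- mice its signals, 4.83 to 5.28, lay under the signal filter of 5.3. Its mean over all arrays, 5.54, passed the filter through the other groups. The size of its fall is therefore uncertain.

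Lipolysis starts with adipose triglyceride lipase (Pnpla2), goes on with hormone-sensitive lipase (Lipe) and ends with monoacylglycerol lipase (Mgll). The activin receptor-like kinase ALK7, encoded by Acvr1c, restrains it in white fat, and Pnpla3 is a lipase relative that insulin and sterols induce. All 5 measured genes were lower in both genotypes, with medians of -1.59 and -1.90. Thus lipases and storage proteins fell side by side, as did Acvr1c, with the difference of -2.65 that was the largest of the group in Mmp8+/+ mice, and -2.39 in Mmp8-/- mice.

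Pnpla2 read 9.64, 10.57 and 10.17 in Mmp8+/+ controls, 10.60, 10.43 and 10.03 in Mmp8-/- controls, 8.36, 8.85 and 8.42 in arthritic Mmp8+/+ mice and 8.42, 8.44 and 8.51 in arthritic Mmp8-/- mice. The arthritic Mmp8-/- mice were within 0.1 of each other, and no arthritic mouse reached a control. The log2 differences were -1.59 and -1.90 (SE 0.22, limma adjusted p = 0.000226 and 5.61e-05). Lipe read 9.18, 10.29 and 10.02 in Mmp8+/+ controls, 10.19, 10.10 and 10.19 in Mmp8-/- controls, 8.05, 7.93 and 7.92 in arthritic Mmp8+/+ mice and 7.90, 8.22 and 8.47 in arthritic Mmp8-/- mice. Again the groups were apart, with differences of -1.86 and -1.96 (SE 0.23, limma adjusted p = 8.29e-05 and 6.02e-05). Mgll fell by 1.43 and 1.90 and Pnpla3 by 0.99 and 1.12 on the log2 scale, Pnpla3 with Mmp8+/+ control mouse 1 among the arthritic mice and a difference of -1.51 in Mmp8+/+ mice without it.

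PPARγ (Pparg) is the factor that fat cells cannot form or persist without, C/EBPα (Cebpa) works beside it at most fat cell genes, and SREBP-1 (Srebf1) and ChREBP (Mlxipl) drive lipogenesis in response to insulin and glucose. Pparg and Srebf1 were lower in both genotypes, Cebpa and Mlxipl in Mmp8-/- mice, and the medians of -0.71 and -1.05 were smaller than those of the uptake and storage genes. Pparg fell by 1.71 and 1.66 on the log2 scale (SE 0.26, limma adjusted p = 0.000406 and 0.000573). Srebf1 read 8.80, 9.24 and 9.45 in Mmp8+/+ controls, 9.31, 9.27 and 9.49 in Mmp8-/- controls, 8.21, 8.31 and 8.40 in arthritic Mmp8+/+ mice and 8.15, 7.87 and 8.35 in arthritic Mmp8-/- mice, without overlap. It fell by 0.86 (SE 0.18, limma adjusted p = 0.00442) and 1.24 (adjusted p = 0.000327).

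Cebpa read 8.53, 9.48 and 9.19 in Mmp8+/+ controls, 9.19, 9.08 and 9.19 in Mmp8-/- controls, 8.47, 8.57 and 8.5 in arthritic Mmp8+/+ mice and 8.45, 7.98 and 8.43 in arthritic Mmp8-/- mice. Mmp8+/+ control mouse 1 stood at the arthritic level. The difference was -0.56 in Mmp8+/+ (SE 0.21, limma adjusted p = 0.0775), -0.83 without that mouse (adjusted p = 0.0101) and -0.86 in Mmp8-/- mice (adjusted p = 0.0111), where it was -0.90 without the 3 arrays (adjusted p = 0.100). Mlxipl differed by -0.31 and -0.54 (limma adjusted p = 0.184 and 0.0281), and by -0.30 in Mmp8-/- mice without the 3 arrays (adjusted p = 0.591). Ucp1, the uncoupling protein of brown fat, stayed between 4.0 and 4.96 in all 12 mice, under the signal filter, and was not tested.

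**Figure D2:**
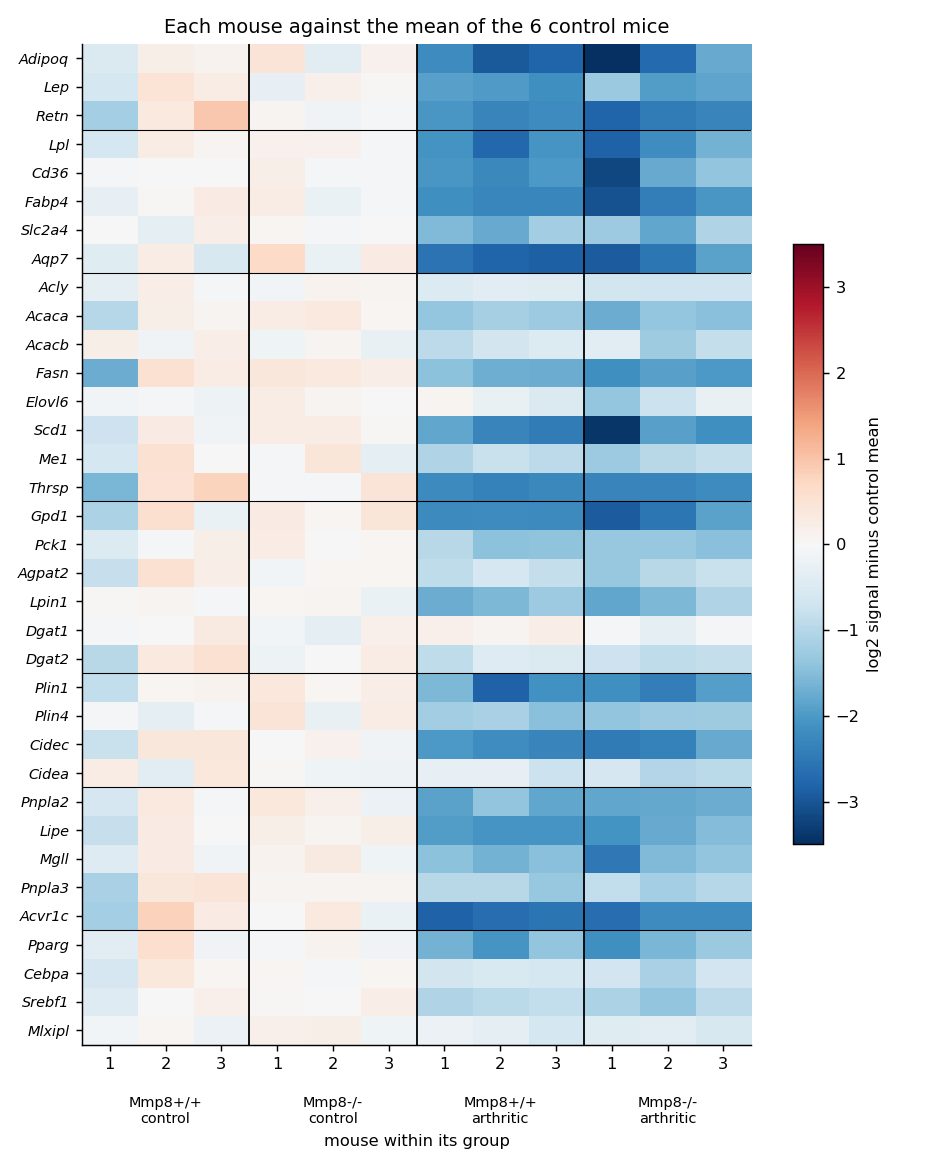
Log2 signal of each mouse minus the mean of the 6 control mice, for the 35 genes tested, in order of role (lines part the roles; columns are the mice of each group). The 6 arthritic columns are blue for most genes, and Mmp8+/+ control mouse 1 is pale blue beside the other controls.

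Over the 35 genes the median signal of a mouse relative to the control mean was -0.58 in Mmp8+/+ control mouse 1, and 0.04 to 0.27 in the other 5 controls. In arthritic mice it was -1.53, -1.66 and -1.47 (Mmp8+/+) and -1.81, -1.61 and -1.38 (Mmp8-/-). Mmp8+/+ control mouse 1 thus lay between the other controls and the arthritic mice. It was the lowest of the 6 controls in 25 of the 35 genes, against 16.3% of all features. The other array with Xist signal, Mmp8-/- control mouse 1, was the lowest in 0 of the 35, against 15.1% of all features. The part of sex in these readings was not tested.

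The genes were not equally low in that mouse. Relative to the mean of the other 5 controls it was lower by 2.08 on the log2 scale for Fasn (difference -2.08), and the differences were -1.92 for Thrsp, -1.44 for Retn and Acvr1c, -1.37 for Pnpla3, -1.32 for Gpd1 and -1.20 for Acaca. It read within the range of the other 5 controls for Cd36, Slc2a4, Aqp7, Acacb, Elovl6, Lpin1, Dgat1, Plin4, Cidea and Mlxipl. By role it was the lowest in 3 of 3 adipokines, 5 of 5 lipolysis genes and 6 of 8 synthesis genes, but in 2 of 5 uptake and 2 of 4 droplet genes. The mean signal of 16 skeletal muscle markers was highest in this mouse, 11.88 against 10.74 to 11.35 in the other controls. The uptake genes named above as also expressed in muscle went both ways. Cd36 and Slc2a4 read within the range of the other controls, and Lpl was lowest in this mouse, 10.67 against 11.26 to 11.56. The part of muscle in these signals was not tested.

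**Figure D3:**
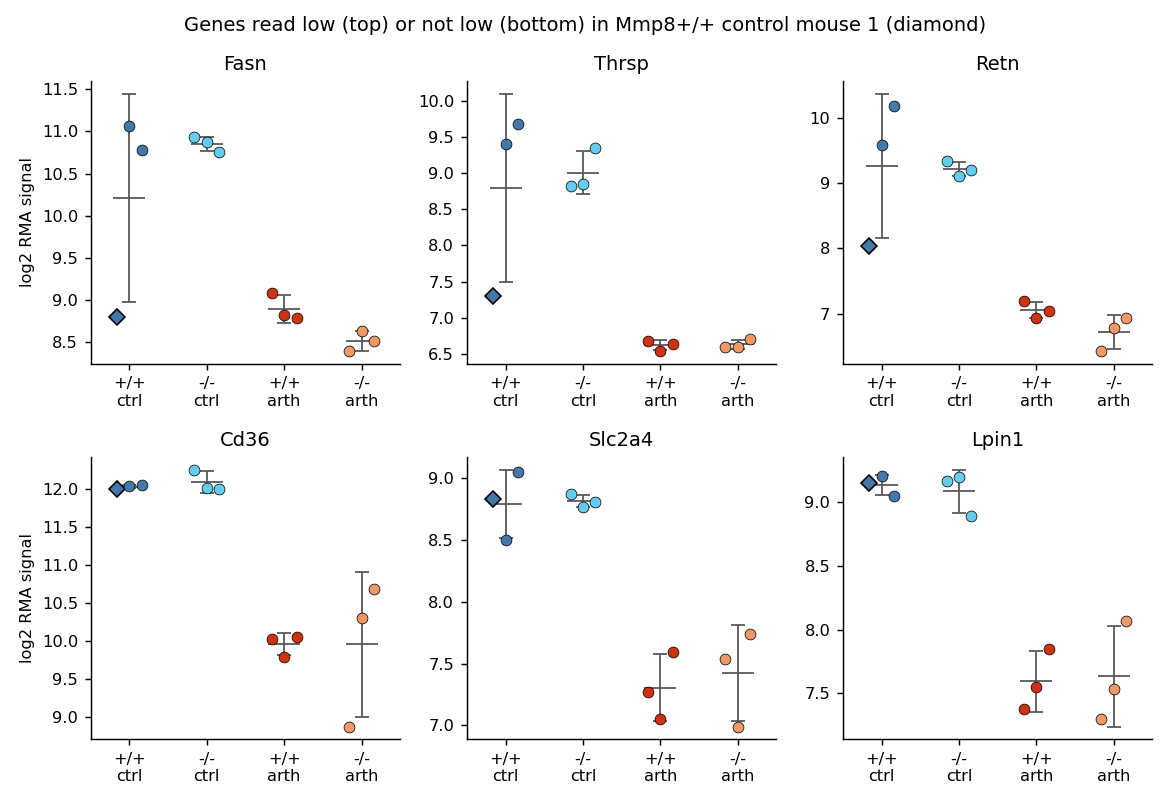
Log2 signal per mouse of 3 genes that read low in Mmp8+/+ control mouse 1 (diamond; Fasn, Thrsp and Retn) and of 3 that did not (Cd36, Slc2a4 and Lpin1), chosen after their values were seen; bars are mean and SD of 3 mice. The diamond reaches the arthritic range for Fasn (8.80) and stays with the controls for Cd36 (12).

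Among the arthritic mice, Mmp8-/- mouse 1 was the lowest of 6 in 18 of the 35 genes, against 27.1% of all features, and Mmp8-/- mouse 3 in 2, against 12.4%. The lowest readings of Mmp8-/- mouse 1 included Adipoq (6.85), Cd36 (8.87), Scd1 (10.08) and Mgll (6.88). Its Lep, at 5.83, was the highest of the arthritic mice, though all of these lay near the signal filter of 5.3. The SD of the arthritic Mmp8-/- mice was larger than that of the arthritic Mmp8+/+ mice in 24 of the 35 genes, among them Cd36 (SD 0.95 against 0.14), Adipoq (0.92 against 0.40) and Scd1 (0.80 against 0.33). It was smaller in 11, among them Plin1 (0.25 against 0.63), Pnpla2 (0.05 against 0.27) and Pck1 (0.08 against 0.26). These SDs rest on the same 3 mice of a group for every gene, and their difference was not tested. No such count was made over all features, so a wider spread cannot be called particular to these genes.

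The genotypes were compared at the same disease state to ask whether the absence of Mmp-8 changed these genes. None of the 35 genes passed in arthritic mice, where 0.00573% of all features (1 feature) did, and none in controls, where no feature did (limma, Benjamini-Hochberg). At an unadjusted p under 0.05 there was 1 gene in arthritic mice and 0 in controls, against 2.89% and 3.25% of all features. The difference between the genotypes in the response to arthritis, the interaction, likewise passed for none, and 1 gene and 3.18% of all features had an unadjusted p under 0.05.

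That gene was Elovl6 in both cases, which differed by -0.55 between the arthritic genotypes, Mmp8-/- minus Mmp8+/+ (95% interval -1.05 to -0.05, limma adjusted p = 1.0), with an interaction of -0.79 (95% interval -1.50 to -0.09, adjusted p = 1.0). Without the 3 arrays the intervals were -1.11 to 0.01 and -1.67 to 0.34. Markers of skin, whose sebaceous cells express Elovl6, differed in the same comparison. All 13 epidermal markers were below 0 in arthritic Mmp8-/- against Mmp8+/+ mice, with a median of -1.16 and 8 without overlap, and Krtdap, named for being the feature that passed, was among them. Of 8 sebaceous gland markers 6 were below 0, with a median of -0.32 and 4 without overlap, and none passed. Their part in the difference of Elovl6 was not tested. In 5 genes (Acly, Acaca, Fasn, Dgat1 and Cebpa) all 3 arthritic Mmp8-/- mice read below all 3 arthritic Mmp8+/+ mice, which was so for 3.42% of all features, and in none above, against 2.85%. The differences were -0.27 for Acly (95% interval -0.61 to 0.06), -0.25 for Acaca (-0.79 to 0.28), -0.38 for Fasn (-1.23 to 0.47), -0.33 for Dgat1 (-0.69 to 0.03) and -0.22 for Cebpa (-0.67 to 0.23). In controls Elovl6 alone was without overlap, with the Mmp8-/- mice above the Mmp8+/+ mice (4.10% of all features), and none of the genes had them below (3.78%). For the second Acaca feature the difference was 0.08, on the other side of 0.

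In 10 genes the signal was at least 4-fold lower with arthritis in both genotypes, and their intervals between arthritic genotypes were wide. Adipoq differed by -0.06 (95% interval -0.85 to 0.73), Lpl by 0.08 (-0.54 to 0.69), Cd36 by -0.01 (-0.69 to 0.67) and Fabp4 by -0.26 (-0.75 to 0.23). Retn differed by -0.34 (-1.12 to 0.44), Scd1 by -0.28 (-0.99 to 0.43) and Cidec by -0.04 (-0.61 to 0.54). For Acvr1c the difference was 0.33 (-0.44 to 1.1), for Aqp7 0.32 (-0.28 to 0.91) and for Thrsp 0.01 (-0.89 to 0.92). Pparg, with a smaller fall, differed by 0.01 (-0.55 to 0.56). These intervals give the precision for each gene with 3 mice a group. The smallest difference that would have been called was not tested. In controls 27 of the 35 differences were above 0, with a median of 0.14, and without Mmp8+/+ control mouse 1 only 14 were, with a median of -0.06. The side of the median in controls therefore rested on 1 mouse, and it was -0.15 without the 3 arrays. The median of the interaction moved from -0.24 to -0.05 with the same mouse left out, and Fasn's interaction from -1.03 to -0.32. The median was 0.03 without the 2 arrays with Xist signal and -0.03 without all 3, and again no gene passed in these comparisons.

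Other genes of the same pathways, taken from lists of 108 further names of which 99 were tested, changed less evenly. There were 29 lower and 9 higher in Mmp8+/+ mice and 34 lower and 6 higher in Mmp8-/- mice, with medians of -0.20 and -0.28. Of all features, 12.1% and 14.3% were lower and 7.47% and 8.30% higher. Among uptake and activation genes, 7 of 15 were lower in each genotype and 4 and 2 higher. Of the fatty acid synthesis genes outside the group, 1 and 5 of 12 were lower, and 1 was higher in Mmp8+/+ mice. Triacylglycerol assembly genes were lower in 2 and 1 of 10, and droplet and lipolysis genes in 4 and 6 of 18, with 2 higher in each genotype. The shares lower among assembly genes (20% and 10%) and, in Mmp8+/+ mice, synthesis genes (8.33%) were not far from those of all features. Insulin and adipokine receptor genes were lower in 5 of 10, adipogenic and lipogenic factors in 6 of 20 (2 higher), and fatty acid oxidation genes in 4 of 14, in each genotype alike.

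Several of these changed in the other direction from a gene of the group related to them by family or function. Angptl4, which inhibits lipoprotein lipase, read 8.76, 7.67 and 8.36 in Mmp8+/+ controls, 7.94, 8.20 and 8.75 in Mmp8-/- controls, 10.45, 10.16 and 10.05 in arthritic Mmp8+/+ mice and 10.07, 10.20 and 10.65 in arthritic Mmp8-/- mice. It rose in both genotypes, by 1.96 and 2.01 on the log2 scale (SE 0.27, limma adjusted p = 0.000163 and 0.000139), where Lpl fell and where Gpihbp1, the capillary anchor of the lipase, fell by 0.76 and 0.82. Fabp5, the fatty acid carrier of epidermis and macrophages, rose from 7.40 to 7.85 over the 6 controls to 8.79 to 9.48 over the 6 arthritic mice (1.78 and 1.52, SE 0.18, limma adjusted p = 1.15e-05 and 5.05e-05), where Fabp4 fell. Plin2, the perilipin of most cells other than fat cells, was higher by 0.73 and 0.63 (SE 0.21, limma adjusted p = 0.0257 and 0.044), with its controls at 9.68 to 10.15 and its arthritic mice at 10.13 to 10.86, where Plin1 and Plin4 fell.

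Among the C/EBP factors, Cebpa passed the test as lower in Mmp8-/- mice alone with all arrays, and in Mmp8+/+ mice alone without the 3 arrays. Cebpb, induced early in fat cell formation and by inflammation, rose by 0.84 and 1.16 on the log2 scale (SE 0.20, limma adjusted p = 0.00831 and 0.00102), and Cebpd by 0.60 and 0.64 (SE 0.15, adjusted p = 0.0116 and 0.00808). For Cebpb the 6 arthritic mice, at 9.27 to 9.88, lay above the 6 controls, at 8.22 to 8.93. The Lep and Plin1 promoters printed above carry letters that factors of this family share, and binding was not measured.

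**Figure D4:**
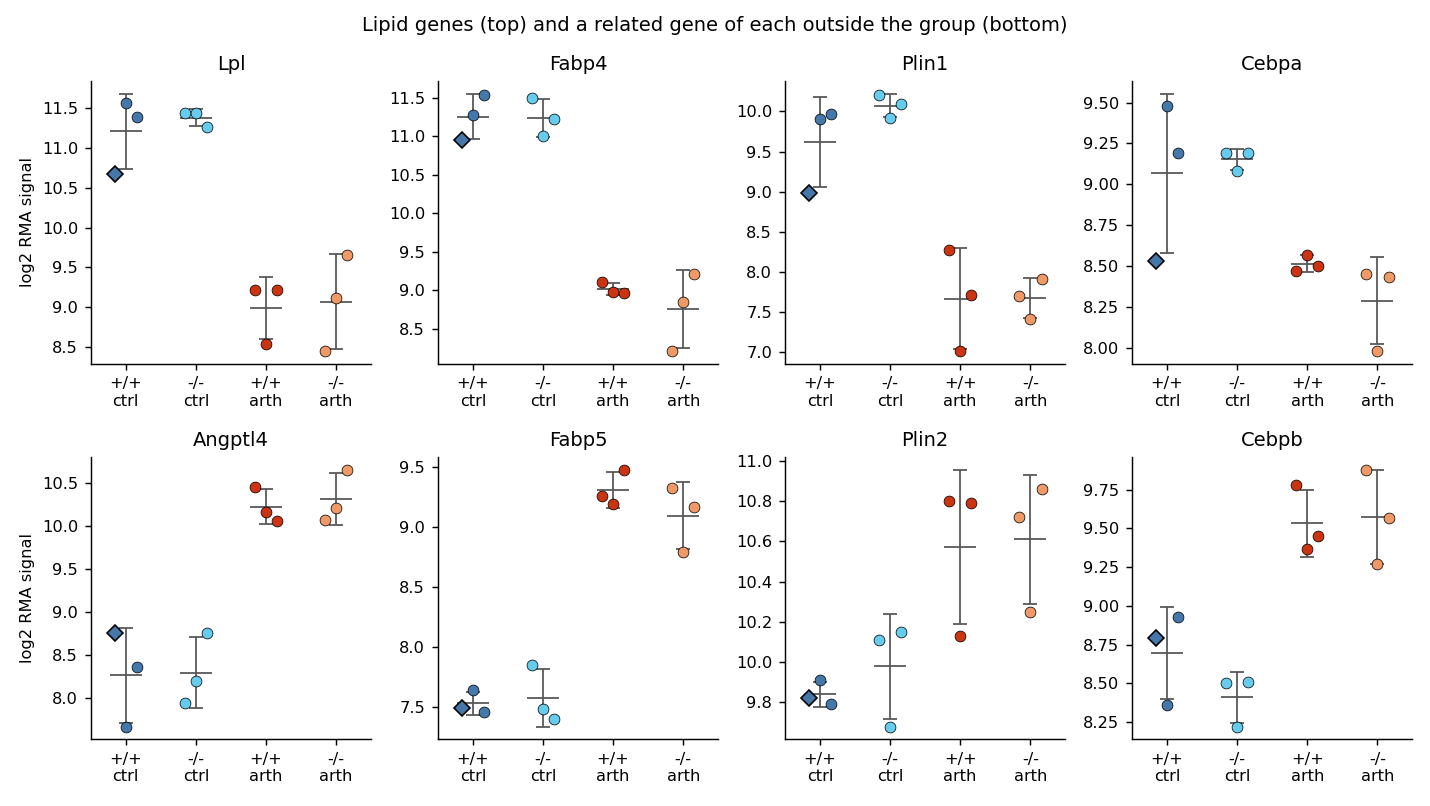
Log2 signal per mouse of Lpl, Fabp4, Plin1 and Cebpa (top) and of Angptl4, Fabp5, Plin2 and Cebpb (bottom), paired after their values were seen; bars are mean and SD of 3 mice, and the diamond is Mmp8+/+ control mouse 1. The top genes read lower in arthritic mice, apart from the Cebpa diamond (8.53), and the bottom genes higher.

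The largest falls among the 99 genes of these pathway lists were in Ces1d, a carboxylesterase of the fat droplet, by 3.76 and 4.31 on the log2 scale (SE 0.29, limma adjusted p = 1.43e-06 and 4.01e-07), and in Lepr, the leptin receptor, by 3.10 and 2.77 (SE 0.23, adjusted p = 9.11e-07 and 2.71e-06). Ces1d ran from 8.92 to 10.15 in controls and from 5.01 to 6.02 in arthritic mice, and Lepr from 9.31 to 10.08 and from 6.35 to 7.18. In both the gap between the groups was wider than 2 log2 units. Vldlr, which binds triacylglycerol-rich particles beside Lpl, fell by 1.91 and 1.85, Acss2, which activates acetate, by 1.41 and 1.45, the natriuretic peptide receptor gene Npr3 by 1.62 and 1.55, the growth hormone receptor gene Ghr by 1.31 and 1.57 and the SREBP regulator Insig1 by 1.39 and 1.57. Hcar2, a niacin and ketone body receptor that restrains lipolysis and is also made by neutrophils and macrophages, rose by 1.06 and 0.96.

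In the remaining lists, Ebf2, a factor of fat cell precursors, fell by 1.05 and 1.73, the mitochondrial acyltransferase gene Gpam by 0.86 and 0.84 and the pyruvate dehydrogenase gene Pdha1 by 0.64 and 0.53. Acadm and Hadh, of fatty acid oxidation, fell by 1.10 and 1.04 and by 0.73 and 1.07.

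As further fat cell markers 18 genes were read, some of which are also in the pathway lists. The list was chosen with earlier results of these data known, so it is not an independent check of the group's name. Of the 17 tested, 15 and 17 were lower with arthritis, where 12.1% and 14.3% of all features were. The mean log2 signal of all 18 was 8.38 in Mmp8+/+ control mouse 1, 9.0 to 9.08 in the other controls and 7.24 to 7.61 in arthritic mice. Cyp2e1 fell by 3.43 and 4.15 and the imprinted gene Nnat by 2.45 and 2.91. As for the 35 genes, Mmp8+/+ control mouse 1 lay between the other controls and the arthritic mice. Brown fat markers (9 tested) were lower in 4 in each genotype and higher in 1 in Mmp8+/+ mice, led by Dio2 (-2.19 and -2.06) and Cox7a1 (-2.45 and -1.76), the latter also a muscle gene.

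Markers of some other tissues moved with arthritis as well. Of all features, 12.1% were lower and 7.47% higher in Mmp8+/+ mice, and 14.3% lower and 8.30% higher in Mmp8-/- mice. Skeletal muscle markers were lower in 15 and 10 of 16, and their mean signal was 10.74 to 11.88 in controls and 8.84 to 10.35 in arthritic mice. Cartilage and bone markers were lower in 6 and 7 of 13 and higher in 1 and 2, with means of 9.81 to 10.40 in controls and 8.57 to 9.76 in arthritic mice. Erythroid markers were lower in 4 and 1 of 7. Epidermal markers, which come with skin and its fat, were lower in 0 and 3 of 13, with means of 7.36 to 8.79 in controls, 8.05 to 8.84 in arthritic Mmp8+/+ mice and 7.15 to 7.38 in arthritic Mmp8-/- mice.

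Sebaceous gland markers, cells that share Scd1 and Elovl6 with fat, were lower in 2 and 3 of 8, and 1 was higher in Mmp8+/+ mice. Macrophage markers (12) were lower in 1 and 3 and higher in 3 and 4, neutrophil markers (12) lower in 3 and 0 and higher in 3 and 3. Fibroblast markers (11) were lower in 0 and 1 and higher in 4 and 1, and endothelial markers (12) lower in 2 and 4 and higher in 1 and 0. Some of these shares were near those of all features (12.1% and 14.3% lower). Examples are macrophage (8.33%) and endothelial markers (16.67%) lower in Mmp8+/+ mice and fibroblast markers (9.09%) lower in Mmp8-/- mice. Among these lists muscle came nearest to fat in the share of markers that fell. In Mmp8+/+ mice its share was the larger, 93.75% against 88.24% of the fat markers. In Mmp8-/- mice it was 62.5% against 100%. The median log2 differences were -1.74 and -1.68 for muscle and -1.42 and -1.55 for the fat markers. The mean signals of 4 of the 11 lists, those of fat, brown fat, muscle and cartilage and bone, did not overlap between controls and arthritic mice, and those of the remaining 7 did. How far a different share of fat, muscle, cartilage, bone and inflamed tissue in the dissected ankle enters these differences was not tested.

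**Figure D5:**
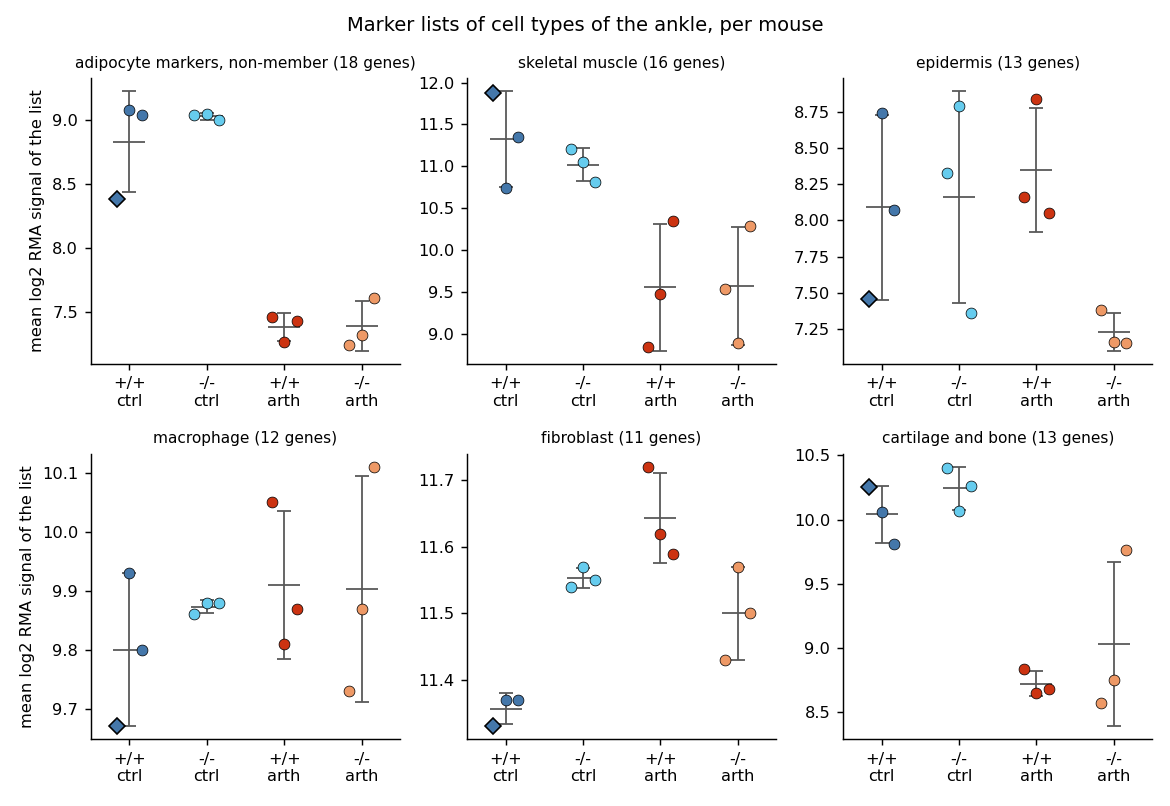
Mean log2 signal per mouse of 6 lists of cell type markers; bars are mean and SD of 3 mice, and the diamond is Mmp8+/+ control mouse 1. The fat, muscle and cartilage and bone lists are lower in all 6 arthritic mice than in any control, and the diamond is the lowest control for fat (8.38) and the highest for muscle (11.88).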

How the data were processed

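Total RNA (300 ng) of the ankle joint of each mouse was labelled and hybridized to 1 Mouse Gene 1.0 ST array. The authors deposited log2 signals made with RMA (background correction, quantile normalization and summary per feature). The submitters' processing notes name RMA and Partek. RMA could not be repeated, and quantile normalization across arrays can hide a shift common to most genes. Gene names came from the platform's annotation table, in which 21789 features carry 1 symbol, 1621 carry several and 5443 carry none. All 12 columns of values were used.

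Features with 1 symbol and a mean log2 signal of at least 5.3 over the 12 arrays were tested (17450 features, 15977 genes) with limma 3.58.1 in R 4.3.3. The model had 1 mean per group, no covariate, moderated variances and 8 residual degrees of freedom, and p-values were two-sided and adjusted by Benjamini-Hochberg over all features tested. Genes with an adjusted p under 0.05 were called. Errors of differences are SE, those of group means SD, and intervals are 95%. The number of arrays limits the precision. Mice of different groups are not paired by any label. The member genes, their roles and the lists of pathway and cell type markers were chosen with earlier results of these data known. Values of every mouse are given for the 2 genes of each role with the highest mean signal, for genes called higher with arthritis or between genotypes, and for others where the text says why. From each other list, up to 2 falling and 2 rising genes were named, those that changed most in both genotypes. The fit was tested on simulated data. Alternatives were ordinary regression, a limma fit restricted to the groups compared, trend and robust moderation, array weights, no filter, every feature, subtraction of array means, quantile normalization of the tested features, the dimmer feature of a gene, each array left out in turn, and removal of the arrays that went against their labels. Promoter windows and gene starts are those of RefSeq on GRCm38.p6. No window was given for Lpl, Fabp4, Slc2a4, Scd1, Gpd1, Dgat1, Dgat2 and Cidea.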

Additional observations from a re-analysis of the deposited data

How the results depend on the processing

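In Mmp8+/+ mice 27 of the 35 genes were lower with arthritis, and 22 to 29 under the 23 alternatives. In Mmp8-/- mice 33 were lower, and 26 to 34 under 23 alternatives. With each array left out in turn the counts were 23 to 29 and 28 to 34, and the medians were -1.61 to -1.36 and -1.77 to -1.55. Ordinary regression gave 22 and 28. Of the genes called, 22 in Mmp8+/+ and 24 in Mmp8-/- mice were called under every alternative. The others were Acaca, Acacb, Fasn, Me1 and Pnpla3 in Mmp8+/+ mice and Acly, Acacb, Elovl6, Me1, Agpat2, Cidea, Pnpla3, Cebpa and Mlxipl in Mmp8-/- mice, and the cause was not tested. Leaving out 1 array ended the call in Mmp8+/+ mice for Fasn (any Mmp8+/+ mouse but control mouse 1), Pnpla3 (the same 5, -1.05 to -0.71, limma adjusted p = 0.0682 to 0.154), Me1 (control mouse 2, arthritic mouse 1 or 3, -0.90 to -0.62), Acacb (control mouse 1 or arthritic mouse 1, -0.74 to -0.66) and Acaca (control mouse 2, -0.81). In Mmp8-/- mice it did so for Mlxipl (control mouse 1 or 2, arthritic mouse 1 or 3, -0.56 to -0.47), Acacb (control mouse 1 or 2 or arthritic mouse 2, -0.75 to -0.51), Pnpla3 (the same 3, -1.12 to -1.03), Elovl6 (control mouse 1 or arthritic mouse 1, -0.82 to -0.61), Cidea (control mouse 1 or arthritic mouse 2, -0.70 to -0.68) and Agpat2 (arthritic mouse 1, -0.89). In Mmp8+/+ mice it added Agpat2, Cebpa and Dgat2 (without control mouse 1, as reported) and Cidea (without control mouse 2, -0.75). With an array of the other genotype left out, Agpat2 in Mmp8+/+ and Dgat2 in Mmp8-/- mice also passed, at unchanged differences of -0.76 and -0.85. Counts between genotypes and for the interaction were 0 under every alternative run.

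Differences that changed sign were all small and not called. Elovl6 in Mmp8+/+ mice (-0.11) was 0.03 after quantile normalization of the tested features and -0.27 to 0.04 with each array left out in turn (0.04 without arthritic Mmp8+/+ mouse 3). Dgat1 in Mmp8-/- mice (-0.08) was 0.10 after quantile normalization and -0.20 to 0.04 with each array left out (0.04 without Mmp8-/- control mouse 3, 0.01 without arthritic Mmp8-/- mouse 2). The dimmer feature of Acaca gave 0.08 between the arthritic genotypes in place of -0.25. Over all features, 2116 lower and 1304 higher calls in Mmp8+/+ mice became 1928 and 1634 with array means subtracted and 1787 and 1579 after quantile normalization, and in Mmp8-/- mice 2500 and 1449 became 2125 and 2068 and 1909 and 1899, while the counts of the 35 genes stayed at 27 in Mmp8+/+ mice under both and were 33 and 32 in Mmp8-/- mice. No paired analysis was possible because the labels give no number that pairs mice of different groups.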
